A study of Drosophila melanogaster with 9 samples.

Results

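The miRNA bantam of Drosophila melanogaster is described here through its mature arms, dme-bantam-3p and dme-bantam-5p (bantam-3p and bantam-5p from here on), which are 2 of the 467 miRNAs in the deposited expression table and 2 of the 145 listed above 0. They were taken by name. The small RNA libraries came from midguts of wild-type Oregon-R flies in a study of how gut regeneration begins and ends. Mock flies had sucrose, and their guts were taken at day 0 at an age of 4 to 5 days. The flies of the other groups were treated with what the labels write as Pe and do not spell out. They were sampled at day 0, again 4 to 5 days old, and at day 3, when they were 7 to 8 days old. There is no mock group at day 3, so time and age cannot be told apart in any comparison with Pe day 3. Against mock day 0, the treatment cannot be told apart from time and age either. Each group held 3 libraries. Whether these came from separate pools of flies is not given in the labels, so a p-value here speaks only of how these libraries vary, and that variation may be technical. In whole guts, fewer cells of a type and less RNA per cell cannot be told apart.

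bantam is a growth-promoting miRNA. A miRNA is cut as a duplex from a hairpin precursor, and one strand is then kept by an Argonaute protein to repress messenger RNAs while the other is mostly discarded. In flies bantam is switched on by Yorkie, the transcriptional co-activator that the Hippo pathway restrains, and it promotes cell proliferation and represses the pro-death gene hid. In the adult midgut it is known to be needed in intestinal stem cells when they proliferate in response to Hippo signalling.

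In the Ensembl annotation of the BDGP6 assembly, the bantam hairpin (mir-ban) is an 81-base precursor on the plus strand of chromosome 3L, from 642208 to 642288. The 5p arm lies at 642222 to 642244 and the 3p arm at 642259 to 642281, each 23 bases long. The hairpin sits within an exon of the long non-coding RNA lncRNA:CR43334 in 3 of 3 annotated transcripts, on the same strand, and that gene runs from 628435 to 643900. The nearest other annotated miRNA hairpin on 3L, mir-282, is 2608734 bases away, so bantam has no cluster partner close by. The build the authors used is not given in the sources used here, and these positions were not joined to the deposited values.

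The table gives RPM, reads per 1000000 miRNA reads of a library. The depth, recovered from the size of 1 read in each library, was 224873 to 1238105 miRNA reads. In the fixed lists of markers of other cell types, both neuronal arms and all 28 testis arms were at 0 in the 9 libraries. The muscle list, with 2 of 4 arms listed, was higher at Pe day 3 (267 to 382 RPM in sum) than in every other library (64.2 to 140 RPM). The ovary list (3 of 6 arms listed) reached 129 RPM in Pe day 0 replicate 3 and at most 27.5 RPM elsewhere, and the early embryo list (3 of 14) at most 33 RPM. Both bantam arms passed the filter on low values, at least 20.1 RPM in at least 3 libraries, which kept 73 miRNAs.

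bantam-3p, the arm known as the guide strand, was one of the abundant miRNAs of the gut in every library. The mock libraries held 4093, 5731 and 4633 RPM of bantam-3p for replicates 1 to 3. The Pe day 0 libraries held 4140, 5329 and 4658 RPM, and the Pe day 3 libraries 4293, 4485 and 6088 RPM. The ranges of the 3 groups lay over each other almost whole, with the lowest library in the mock group and the highest at Pe day 3. Behind these values stood 1369 to 5767 reads per library. The group means were 4819 ± 835, 4709 ± 596 and 4955 ± 985 RPM (SD, n = 3) in mock, Pe day 0 and Pe day 3.

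bantam-5p, the passenger arm, was present in every library at a far lower level. The mock libraries held 299.5, 587 and 363 RPM of bantam-5p. The Pe day 0 libraries held 251, 398 and 286 RPM, and the Pe day 3 libraries 361, 553 and 587 RPM. The Pe day 0 libraries tended to be low and those of Pe day 3 high, but the highest Pe day 0 library stood above the lowest Pe day 3 library, and the mock libraries spanned nearly the whole range. The reads behind these values numbered 118 to 354 per library. The group means were 417 ± 151, 311 ± 76.8 and 500.4 ± 122 RPM (SD, n = 3).

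**Figure D1:**
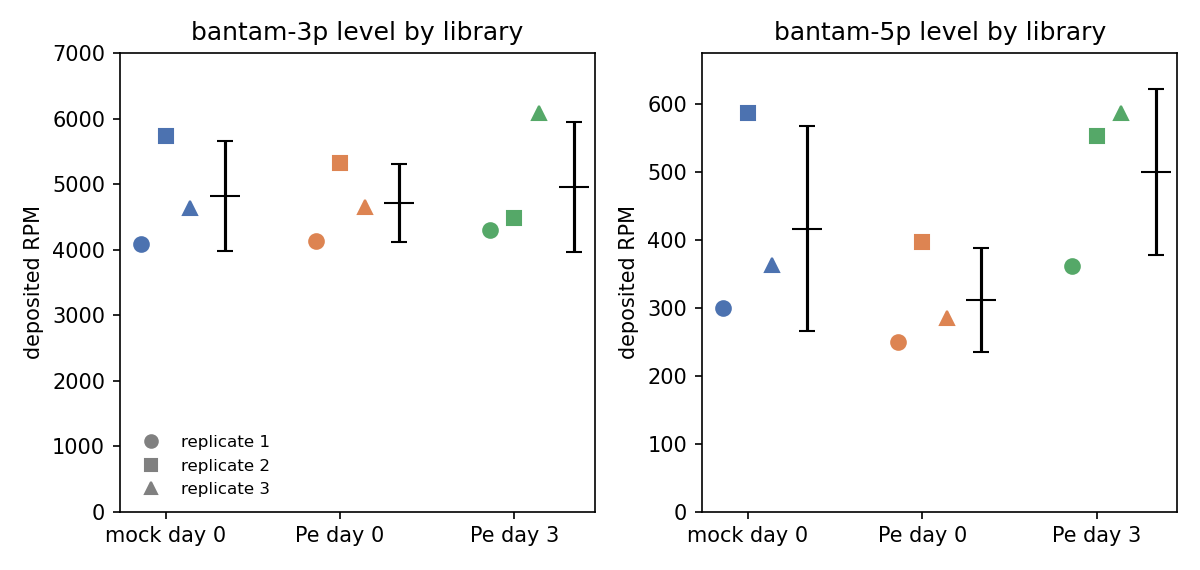
Deposited RPM of bantam-3p (left) and bantam-5p (right) in each library, by group, with marker shape for the replicate number and the black bar for mean ± SD (n = 3). The bantam-3p libraries of all groups lie between 4093 and 6088 RPM, while bantam-5p runs from 251 RPM in a Pe day 0 library to 587 RPM.

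Together the arms made up 0.439% to 0.667% of the miRNA reads of a library. By level bantam-3p ranked between 7 and 10 among all listed miRNAs, with a median rank of 8, and bantam-5p between 26 and 39, with a median of 29. RPM counts sequenced reads, with no correction for how well each sequence was captured, so ranks compare reads. By mean log2 level bantam-3p took place 7 of the 73 tested miRNAs. miR-263a-5p, miR-31a-5p and miR-10-3p stood directly above it, each higher in 9 of 9 libraries. miR-10-3p, next in the order, had 6443 ± 1523 RPM over the 9 libraries (SD), and its log2 level exceeded that of bantam-3p by 0.39 ± 0.21 (SD, n = 9).

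miR-8-3p, which acts in growth and insulin signalling in the fat body, stood directly below bantam-3p at 4543 ± 758 RPM. It was the higher of the pair in 3 of 9 libraries, with a log2 difference of -0.091 ± 0.15 (SD, n = 9). That SD is the spread of single libraries, and the order of the pair was not tested. miR-14-3p, known for its part in fat metabolism and cell death, followed at 3953 ± 1063 RPM. It was higher than bantam-3p in 2 of 9 libraries, with a log2 difference of -0.33 ± 0.39 (SD, n = 9), an order likewise not tested. The means of miR-14-3p were 3009, 4638 and 4212 RPM in mock, Pe day 0 and Pe day 3. Those of bantam-3p were 4819, 4709 and 4955 RPM. miR-305-3p, at 3107 ± 408 RPM, was lower than bantam-3p in every library.

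Around bantam-5p the order was loose. It took place 31 by mean log2 level, between miR-14-5p and miR-279-3p, with miR-13b-3p and miR-314-3p above and miR-8-5p and miR-275-3p further below. Of these, miR-14-5p was higher than bantam-5p in 4 of 9 libraries and miR-13b-3p in 5 of 9. The log2 difference of each of these 6 neighbours from bantam-5p was smaller than its SD over the libraries, which for miR-14-5p was 0.0073 ± 0.54. That SD takes in differences between the groups. Each of the 6 had a lower mean RPM than bantam-5p in mock and a higher one at Pe day 0. For miR-8-5p the means were 251 and 482 RPM there, where bantam-5p had 417 and 311.

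**Figure D2:**
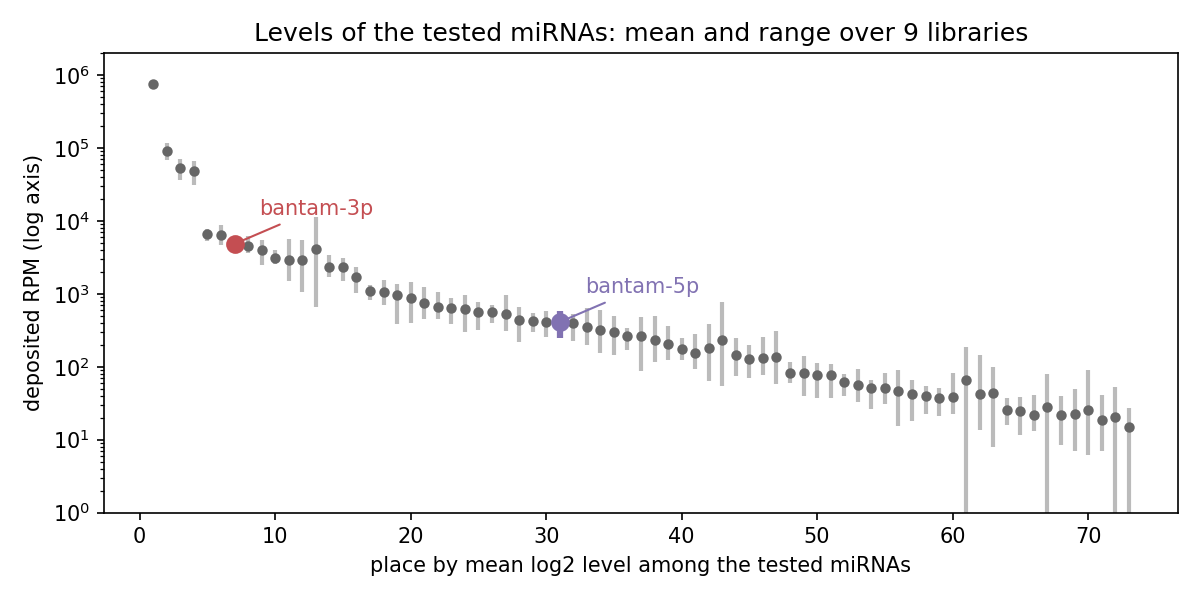
Deposited RPM on a log axis for the 73 tested miRNAs in order of mean log2 level, with points for the mean and grey lines from the lowest to the highest of the 9 libraries (lines that reach the bottom of the axis go to 0). bantam-3p takes place 7, just below miR-10-3p, and bantam-5p place 31.

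The level of bantam-3p was among the steadiest in RPM. Its coefficient of variation over the 9 libraries was 14.9%, the 4th smallest of 73, where the median of all tested miRNAs was 34.2%. The highest library held 1.49 times the RPM of the lowest. Within groups the SD of its log2 RPM was 0.24, the 10th smallest of 73, where the median was 0.40. The 73 run down to a mean of 15 RPM, and these places were not adjusted for level. Beside 4828 ± 719 RPM for bantam-3p, its neighbours miR-31a-5p (6598 ± 947), miR-8-3p (4543 ± 758) and miR-305-3p (3107 ± 408) were similarly steady (SD, n = 9). The neighbours miR-10-3p (6443 ± 1523), miR-14-3p (3953 ± 1063) and miR-263a-5p (48244 ± 13047) varied more. For bantam-5p the coefficient of variation was 32.4%, place 32 of 73, and the highest library held 2.34 times the lowest.

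The comparisons between groups were made on RPM divided by TMM factors (a trimmed mean of log ratios between libraries), as log2(scaled RPM + 4.02), in one limma model of the 73 miRNAs and 9 libraries. Adjusted p-values are limma's with Benjamini-Hochberg adjustment over the 73, and a miRNA was called at an adjusted p under 0.05. On this scale bantam-3p stood at 5179 ± 303 in mock, then 4857 ± 535 and 4422 ± 797 in the Pe groups by day, and bantam-5p at 438 ± 83.0, 321 ± 73.5 and 439 ± 51.4 (scaled RPM, SD, n = 3). Neither arm was called in any of the 3 comparisons in this model, and neither arm's libraries separated completely between any pair of groups, scaled or as deposited. The smallest unadjusted limma p of the 6 was 0.0748. The muscle list moved with Pe day 3 as given above, and its part in the comparisons with that group was not tested.

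Pe day 0 against mock, at one age, compares the Pe-treated guts of day 0 with the sucrose-fed ones. bantam-3p had a log2 change of -0.10 ± 0.21 SE (limma adjusted p = 0.855), and the 95% interval of the change ran from 0.698-fold to 1.25-fold. bantam-5p had a log2 change of -0.45 ± 0.25 SE (limma adjusted p = 0.241), with an interval from 0.511-fold to 1.04-fold. The median of all 73 miRNAs lay at 0.17, so bantam-3p stood 0.27 and bantam-5p 0.62 below it. Of the 73, 3 were called, or 4.11%, and 27.4% had an unadjusted p under 0.05. The deposited libraries of these groups did not overlap for 28.8% of the 73, and the scaled ones were apart and higher for 21.9% and apart and lower for 11%, whereas both bantam arms overlapped. Same-numbered libraries of these groups deviated together from their group means (r over 0.1) in 3 of 3 pairs. Over all comparisons 5 of 9 same-numbered and 3 of 18 differently numbered pairs did so. Within the same-numbered pairs of mock and Pe day 0 the bantam-5p log2 level was lower at Pe day 0 by similar amounts. The differences were -0.46, -0.40 and -0.51 for replicates 1 to 3, while those of bantam-3p were -0.19, 0.056 and -0.16. A limma fit of only these groups with the replicate number as a block, chosen after these values were seen, gave bantam-5p a log2 change of -0.63 ± 0.17 SE (limma adjusted p = 0.023) and bantam-3p one of -0.27 ± 0.16 SE (limma adjusted p = 0.234). That fit has 2 residual degrees of freedom and called 13 of 67 miRNAs, or 19.4%. Its TMM factors come from these 6 libraries and place the median of all at -0.0060, and relative to that median bantam-5p stood at -0.62, as in the model of all libraries. With the block over all libraries bantam-5p was not called (limma adjusted p = 0.184), and 1 miRNA was called in place of 3. In the authors' deposited table bantam-3p had a log2 fold change of -0.28 (adjusted p = 0.325) and bantam-5p of -0.65 (p = 0.011 unadjusted, adjusted p = 0.0779), and that table called 3.28% of the miRNAs to which it gave an adjusted p.

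Pe day 3 against Pe day 0 compares the later Pe-treated guts with the earlier ones. The log2 change of bantam-3p was -0.15 ± 0.21 SE (limma adjusted p = 0.628), with an interval from 0.675-fold to 1.21-fold. For bantam-5p it was 0.47 ± 0.25 SE (limma adjusted p = 0.273), with an interval from 0.966-fold to 1.97-fold. The median of all was 0.01, 2.74% of the miRNAs were called and 17.8% had an unadjusted p under 0.05. Deposited libraries were apart for 23.3%, and scaled ones apart and higher for 11% and lower for 13.7%. With RPM as deposited, the sign of the bantam-3p change turned, to 0.063 (limma adjusted p = 0.910).

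Pe day 3 against mock day 0 sets the later Pe-treated guts beside the sucrose-fed ones, so treatment, time and age cannot be told apart in it. bantam-3p had a log2 change of -0.24 ± 0.21 SE (limma adjusted p = 0.466), from 0.631-fold to 1.13-fold, and lay 0.45 below the median of all, which was 0.21. RPM as deposited turned its sign, to 0.036. bantam-5p stood at 0.013 ± 0.25 SE (limma adjusted p = 0.961), from 0.706-fold to 1.44-fold, and its sign turned under several other scalings. In this comparison 17.8% of the miRNAs were called and 26% had an unadjusted p under 0.05. Deposited libraries were apart for 32.9%, and scaled ones apart and higher for 20.5% and lower for 9.59%. The authors' deposited table gave -0.38 for bantam-3p (p = 0.0472 unadjusted, adjusted p = 0.241) and -0.15 for bantam-5p (adjusted p = 0.842), with 13.1% called. The comparisons share their control or Pe libraries, so their values are not independent of each other.

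**Figure D3:**
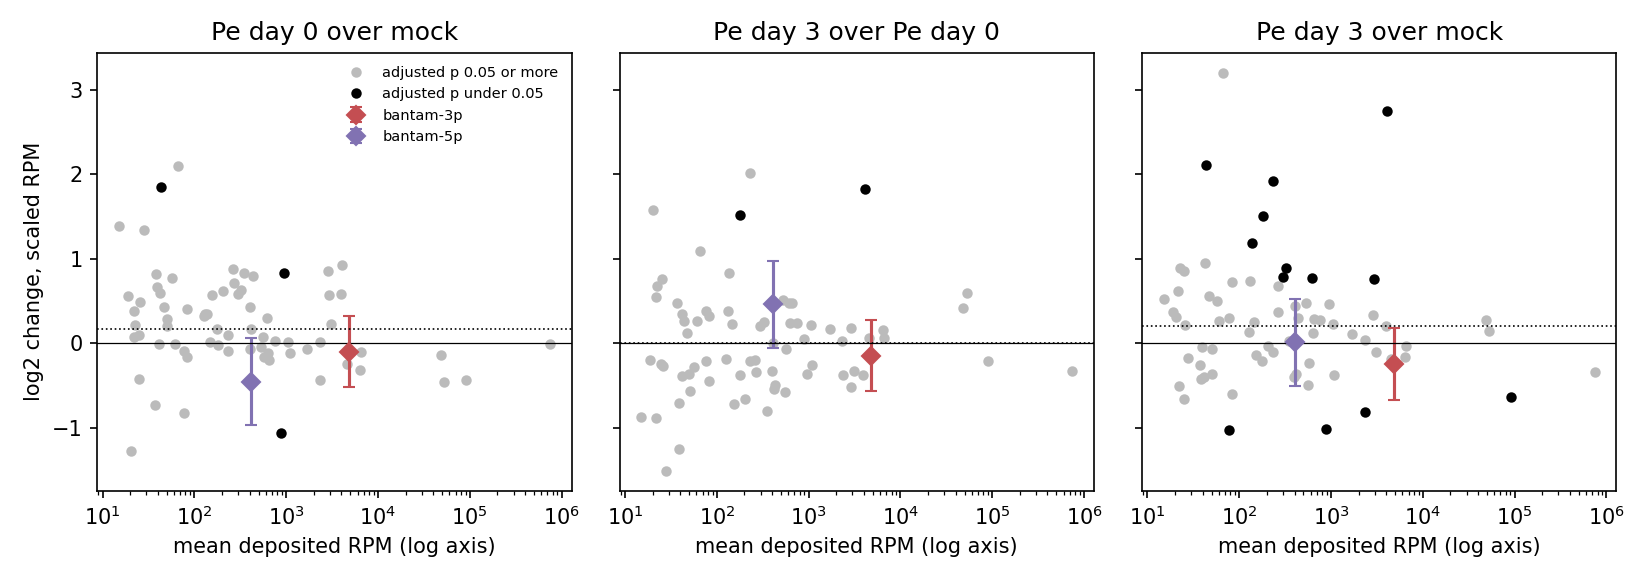
Log2 change of scaled RPM against mean deposited RPM (log axis) for the 73 tested miRNAs in each comparison, with black points for limma adjusted p under 0.05, grey points for the others and a dotted line at the median of all. The diamonds are bantam-3p and bantam-5p with their 95% intervals, each of which reaches across 0.

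A joint limma F test for any difference among the 3 groups gave an adjusted p of 0.625 for bantam-3p and 0.258 for bantam-5p, where 13.7% of the miRNAs were called. Over the 3 comparisons the intervals of the bantam-3p change reached no further than 0.631-fold and 1.25-fold, and those of bantam-5p reached 0.511-fold and 1.97-fold.

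The ratio of the arms does not depend on the scaling of the libraries, because both values come from the same library. The 5p arm gave 6.82%, 9.29% and 7.27% of the bantam reads in the mock libraries. For Pe day 0 the shares were 5.71%, 6.95% and 5.78%. For Pe day 3 they were 7.76%, 11% and 8.79%. All 3 Pe day 3 libraries therefore lay above all 3 Pe day 0 libraries, and the mock libraries lay between them with overlap on both sides. In each group the library labelled replicate 2 had the largest share. The 95% Wilson interval of the Pe day 0 library with the largest share ran from 5.83% to 8.25% and that of the Pe day 3 library with the smallest share from 6.97% to 8.62%, so these counts alone do not separate them. Such intervals cover counting error only, since PCR copies are not independent molecules. The group means were 7.79% ± 1.31, 6.15% ± 0.693 and 9.18% ± 1.64 (SD, n = 3).

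**Figure D4:**
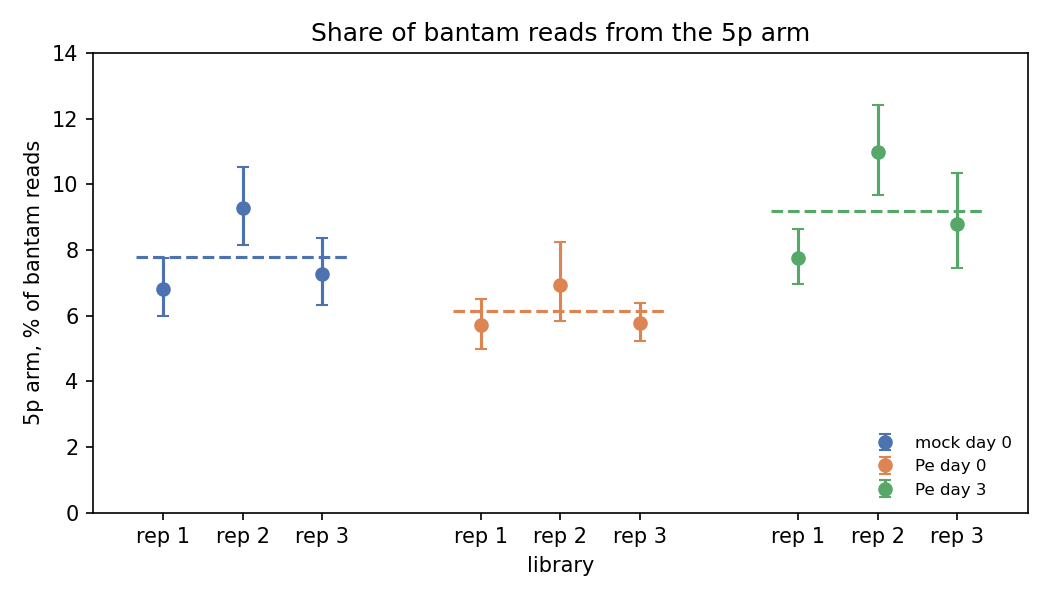
Percent of bantam reads that came from the 5p arm in each library, with 95% Wilson intervals for counting error and dashed lines at the group means. The Pe day 0 libraries lie between 5.71% and 6.95% and the Pe day 3 libraries between 7.76% and 11%.

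As a log2 ratio of 5p over 3p, the Pe day 3 libraries exceeded those of Pe day 0 by 0.61, or 1.53-fold, in an exact permutation test with two-sided p = 0.1. With 3 libraries against 3 that is the smallest p the test can give, so this test cannot pass 0.05 here. Pe day 0 stood at -0.36 relative to mock (exact permutation p = 0.2) and Pe day 3 at 0.25 relative to mock (exact permutation p = 0.3). Adjusted over the 3 comparisons each p is 0.3. Within same-numbered libraries the arm ratio was higher at Pe day 3 than at Pe day 0 in 3 of 3 pairs, by 0.47, 0.72 and 0.64. Since the libraries of these groups did not overlap, any pairing of them gives 3 of 3, and the count adds nothing. The ratio was lower at Pe day 0 than in mock in 3 of 3, with differences of -0.27, -0.45 and -0.35. It was higher at Pe day 3 than in mock in 3 of 3, by 0.20, 0.27 and 0.29. An exact two-sided sign-flip test of 3 pairs gives p = 0.25 in each, the smallest it can give, and only the mock and Pe day 0 libraries met the check of pairing. A limma model of the arm ratios of the 18 hairpins with both arms listed in all libraries was added after the values were seen. It gave 0.61 ± 0.34 SE for Pe day 3 against Pe day 0 (limma adjusted p = 0.153), with an interval from -0.07 to 1.29. In that comparison 22.2% of the hairpins were called by limma. The libraries did not overlap for 50% of the hairpins in either direction, and for 16.7% with the 5p share higher at Pe day 3, bantam among them. In both comparisons with mock, where bantam's libraries overlapped, 22.2% of the hairpins were apart, 5.56% with a higher 5p share, and limma called 11.1% and 27.8%.

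Among the 18 hairpins bantam took place 12 by the share of its lesser arm, 7.71% on average over the libraries. Its neighbours in that order were miR-305, with 8.62%, and miR-8, with 7.31%. The same arm was the major one in all 9 libraries. Its log2 arm ratio had an SD of 0.33 over the 9 libraries, the 3rd smallest of the 18, after miR-10 and miR-14.

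In deposited RPM both bantam arms were lower in deeper libraries, and after TMM scaling this held for bantam-5p. Of 7 relations computed, 5 set a bantam measure against log2 depth over the 9 libraries. The exact tests of all 7 permuted the 9 libraries without regard to group, so differences between groups enter their p-values. Mean depth was 522946 reads in mock, 781550 at Pe day 0 and 496187 at Pe day 3. For bantam-5p in deposited RPM Pearson's r was -0.81 (exact permutation p = 0.0107, adjusted 0.0375) and Spearman's rho -0.87 (exact permutation p = 0.00451, adjusted 0.0289). Without the 2 libraries farthest from the median depth r was -0.73. TMM scaling left this relation at r = -0.81 (exact permutation p = 0.00769, adjusted 0.0375) and rho = -0.83 (exact permutation p = 0.00827, adjusted 0.0289), and r was -0.63 without the farthest libraries. It was the most negative correlation with depth among the 73 miRNAs on the scaled values, whose median r was 0.04. On those values bantam-3p took place 22 from the most negative. In deposited RPM the median r of the 73 was -0.18, with bantam-5p at place 2 and bantam-3p at place 3.

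bantam-3p in deposited RPM had r = -0.77 with depth (exact permutation p = 0.0165, adjusted 0.0385) and rho = -0.65 (exact permutation p = 0.0666, adjusted 0.116), and r = -0.84 without the farthest libraries. After TMM scaling r was -0.22 (exact permutation p = 0.591, adjusted 0.594) and rho -0.48 (exact permutation p = 0.194, adjusted 0.226), and r was 0.01 without those libraries. The arm ratio had r = -0.64 (exact permutation p = 0.0663, adjusted 0.0928) and rho = -0.57 (exact permutation p = 0.121, adjusted 0.169), and r = -0.48 without them. The labels give no sequencing batch, and the groups overlap in depth, with 363095 to 707747 reads in mock. The Pe day 0 libraries had 296702 to 1238105 reads, and those of Pe day 3 had 224873 to 864119. With log2 depth as a covariate, chosen after these values were seen, the bantam-5p change was -0.35 for Pe day 0 against mock and 0.30 for Pe day 3 against Pe day 0, where limma without it gave -0.45 and 0.47. The arm difference between Pe day 3 and Pe day 0 was 0.50 with that covariate.

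**Figure D5:**
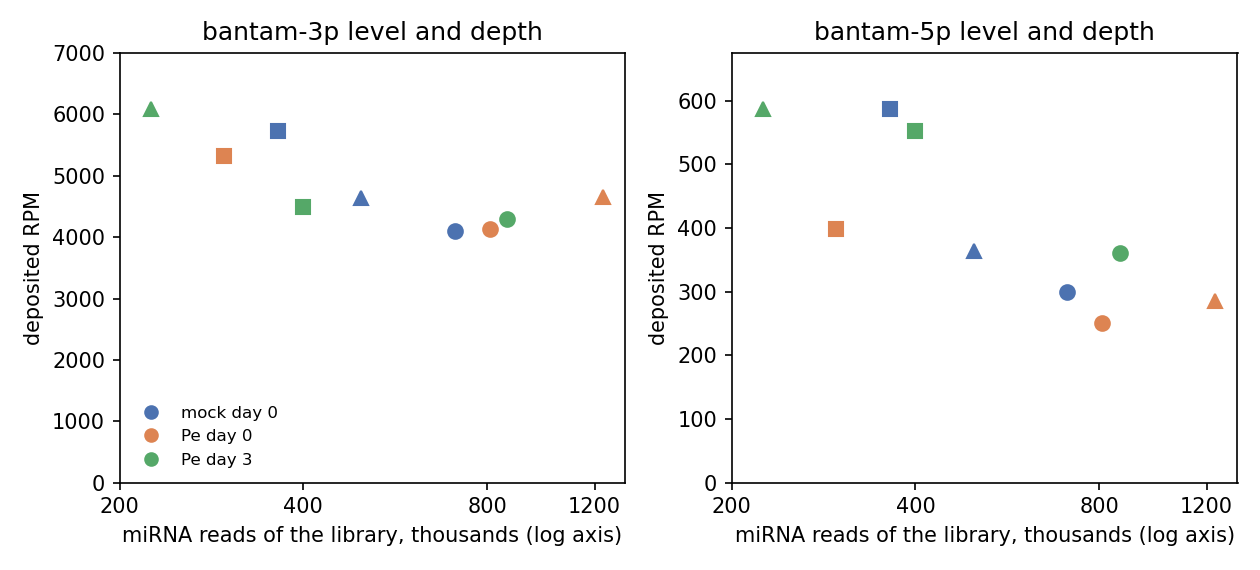
Deposited RPM of bantam-3p (left) and bantam-5p (right) against the miRNA reads of the library (log axis), coloured by group, with marker shape for the replicate number as in the plot of levels. The shallowest library, with 224873 reads, holds 6088 RPM of bantam-3p and 587 RPM of bantam-5p, the highest of each.

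The 2 remaining relations set the arms against each other. In deposited RPM they rose and fell together, with r = 0.75 (exact permutation p = 0.0236, adjusted 0.0414) and rho = 0.73 (exact permutation p = 0.0311, adjusted 0.0726). All miRNAs of a library share one total there, and miR-956-3p alone took 69.8% to 80.2% of it. Its r in deposited RPM was -0.58 with bantam-3p and -0.89 with bantam-5p, and in scaled RPM 0.51 and -0.49. The part of miR-956-3p in how the arms moved was not tested. Without the 2 libraries farthest from the median bantam-3p level r was 0.39 over the other 7. In scaled RPM r was 0.21 (exact permutation p = 0.594, adjusted 0.594) and rho 0.38 (exact permutation p = 0.312, adjusted 0.312), and r was 0.74 without the farthest libraries.

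The miRNAs most like bantam-3p over the 9 libraries, by Pearson's r of log2 scaled RPM, were miR-10-5p with r = 0.75, miR-958-5p with 0.75, miR-8-3p with 0.69, miR-263a-3p with 0.54 and miR-10-3p with 0.54. These points share their libraries and scaling factors, and the median r over the 72 other tested miRNAs was -0.16. In deposited RPM, where the median was 0.23, miR-8-3p and miR-10-3p had r = 0.78 and 0.82, while miR-10-5p stood at 0.47 and miR-958-5p at 0.32.

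The miRNAs with roles near those of bantam were read from lists that overlap, and the arms of bantam are left out of their counts. In the growth and metabolism list 12 arms were tested. None was called by limma for Pe day 0 against mock or Pe day 3 against Pe day 0, where 4.11% and 2.74% of the 73 were. At an unadjusted limma p under 0.05 stood 4 and 2 of the 12, beside 27.4% and 17.8% of the 73, with median log2 changes of 0.42 and 0.038 beside 0.17 and 0.01 over all 73. For Pe day 3 against mock miR-305-5p rose, the other 11 were not called where 17.8% of the 73 were, and the median was 0.24 beside 0.21. Among its abundant members miR-14-3p had a log2 change of 0.58 ± 0.21 SE for Pe day 0 against mock (limma adjusted p = 0.103), where miR-8-3p had -0.24 ± 0.21 (limma adjusted p = 0.518).

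The miRNAs of the cell death list are known to repress hid, reaper, grim or sickle or to act in cell death otherwise. None of its 12 tested arms was called by limma in any comparison. Of the 73, limma called 4.11%, 2.74% and 17.8% in the same comparisons. At an unadjusted limma p under 0.05 stood 2, 1 and 2 arms, in the order of the comparisons above, beside 27.4%, 17.8% and 26% of the 73. Its medians were 0.43, -0.22 and 0.24, beside 0.17, 0.01 and 0.21 over all. miR-263a-5p, which like bantam is known to repress hid, had log2 changes of -0.14, 0.42 and 0.28 in that order (limma adjusted p from 0.270 to 0.805). miR-11-3p, of the same list, had -0.06, 0.17 and 0.11 (limma adjusted p from 0.628 to 0.985). In the midgut progenitor list none of 12 was called by limma in the first pair of comparisons, where 4.11% and 2.74% of the 73 were. Its arms at an unadjusted limma p under 0.05 numbered 6 and 2, beside 27.4% and 17.8% of the 73. The medians of the list were 0.58 and -0.13, beside 0.17 and 0.01. For Pe day 3 against mock miR-275-3p, miR-305-5p and miR-958-3p rose and miR-958-5p fell, by limma, 4 of 12 where 17.8% of the 73 were called, with a median of 0.15 beside 0.21. The called members of both lists are named because their values were seen.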

How the data were processed

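Small RNA libraries of adult midguts were sequenced in 3 groups of 3. The deposited RPM table gives reads per 1000000 miRNA reads per library. The label of that table holds the name miRge, without a version. Its aligner, miRNA database and build are not otherwise given in the sources used here. A comparison table deposited by the authors holds a mean signal, log2 fold changes, a Wald score and p-values under DESeq2's column names, per the file headers. The submitters' processing notes name DESeq2 1.22.0. Its contrasts are unnamed. They matched Pe day 0 and Pe day 3 over mock within 0.0325 and 0.0455 (log2) over 47 miRNAs.

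RPM values were whole multiples of 1 read, within 1.27e-06, and the reads so recovered gave the authors' deposited mean signal within a relative 4.79e-15, but too few values were low for the rule on accepting recovered reads in a count test. limma 3.58.1 in R 4.3.3 (trended, robust, no block, 6 residual degrees of freedom) was therefore used, with TMM factors (30% and 5% trims), a filter worth 10 reads in 3 libraries and a pseudocount worth 2 reads, both at 497997 reads, the median depth. It was tested on simulated data. The miRNAs named are the 3 directly above and 3 below each arm by mean log2 level, the 5 with the highest r with bantam-3p, and up to 4 per list by mean level. The replicate numbers are in the labels, which do not say what they share. Deviations from the group means correlated between same-numbered libraries at 0.24 to 0.43 for mock and Pe day 0, over 0.1 in 3 of 3 pairs, and over 0.1 in 2 of 3 pairs for Pe day 3 and Pe day 0 and 0 of 3 for Pe day 3 and mock. Between differently numbered libraries of different groups r ran from -0.40 to 0.28, and was over 0.1 in 3 of 18 pairs. The members and lists were chosen with earlier results of these data known. Alternatives covered scaling, pseudocount, filter, samples fitted, block, voom, depth and each library left out. The RNA annotation used holds no sequences, so none are shown.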

Additional observations from a re-analysis of the deposited data

How the results depend on the processing

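Over the 6 bantam changes 1 of 132 alternative limma fits passed the threshold: bantam-5p for Pe day 0 against mock, at -0.63 (adjusted p = 0.023) with only the groups compared and the replicate block, chosen after seeing the data. The other 21 alternatives of that change had adjusted p from 0.0643 to 0.571. The bantam-3p changes kept their sign for Pe day 0 against mock, and turned only with RPM as deposited in the other comparisons, to 0.063 relative to Pe day 0 and 0.036 relative to mock. The bantam-5p changes kept their sign in 22 of 22 alternatives in each of the comparisons that hold Pe day 0. For Pe day 3 against mock its value of 0.013 became -0.14 with median-of-ratios factors, -0.19 when the 5 most abundant miRNAs were left out of the total, -0.13 with only the groups compared (with or without the block) and, as alternatives chosen after seeing the data, -0.0046 with TMM factors over the tested miRNAs and -0.049 with depth as a covariate. Leaving out each library in turn gave -0.19 to 0.16. The cause was not tested. The median rank of bantam-3p was 7.5 to 8 without single libraries and 7 without miR-956-3p or for hairpins with both arms summed.

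The numbers of miRNAs called moved more. For Pe day 0 against mock, 3 became 0 with RPM as deposited or no filter, 7 with a filter of 100 RPM and 16 with the depth covariate. Without single libraries it was 0 to 8: 0 without mock replicate 1 or 3, Pe day 0 replicate 2 or Pe day 3 replicate 2 or 3, and 8 without Pe day 3 replicate 1. For Pe day 3 against Pe day 0, 2 became 4 with RPM as deposited, without the 5 most abundant in the total or with no filter, and 7 with the depth covariate. Without single libraries it was 2 to 7: 4 without Pe day 0 replicate 2 or 3, and 7 without Pe day 3 replicate 1. For Pe day 3 against mock, 13 became 4 to 15 without single libraries: 4 without mock replicate 1 or Pe day 3 replicate 2, and 6 without mock replicate 3. Where limma called 0, 9 to 22 miRNAs had an unadjusted p under 0.05, and voom called 2, 2 and 11. DESeq2 and edgeR were not run, since the recovered reads missed the rule for a count test.

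Same-numbered libraries deviated together in 3 of 3 pairs for mock and Pe day 0 only. With the replicate block over all libraries 1, 6 and 14 miRNAs were called in the comparisons in that order, and over only the groups compared 13, 5 and 13. A block leaves the balanced changes as they are. With it over all libraries the limma adjusted p were 0.837, 0.621 and 0.443 for bantam-3p and 0.184, 0.216 and 0.955 for bantam-5p. The arm difference between Pe day 3 and Pe day 0 had a limma adjusted p of 0.0701 with the block, 0.153 without it, and an exact sign-flip p of 0.25, the smallest 3 pairs allow. It ranged from 0.46 without Pe day 3 replicate 2 to 0.73 without Pe day 3 replicate 1. The bantam-5p reads, 118 in the library with the fewest, limit the precision of the arm shares.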

Other observations

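By Pearson's r over the 9 libraries bantam-5p was closest to miR-10-3p, the lesser arm of the miR-10 hairpin in the Hox region, with r = 0.89 in scaled and 0.97 in deposited RPM, the highest of the 72 other tested miRNAs on both scales, whose median r was -0.083 and 0.31. It was followed by miR-375-3p with 0.74 and 0.89. These miRNAs were singled out after their values were seen. The points share their libraries and, in deposited RPM, a total that is mostly miR-956-3p. bantam-3p, from the same hairpin, took place 23 in the order of likeness to bantam-5p in scaled RPM, with r = 0.21, and place 11 in deposited RPM, with r = 0.75.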
